A study of Rattus norvegicus with 28 samples.

Results

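Ttr encodes transthyretin, the thyroid hormone carrier that the epithelium of the choroid plexus makes and secretes into the cerebrospinal fluid, and among the members measured above background on every array it had the widest range over rats. The 72 array rows described here are Ttr and the rows that rose and fell with it from rat to rat. They were chosen on the deposited gene expression table from the values themselves: rows above 0.02 on at least 5 of 14 columns, with a Pearson r of 0.85 or more with Ttr over the 14 rats after each group's mean was subtracted, and with a range of 1.5 or more on the log2 scale. Of 30367 rows, 19670 passed the level limit, 79 of those reached the limit on r, and 72 also passed the limit on the range. Through RefSeq, 57 of the 72 rows had a name and stood for 55 genes, with 2 rows each for Cdkn1c and C8h11orf97, and the other 15 rows had none.

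The choroid plexus hangs into the brain's ventricles, and in the rat the hippocampus borders the lateral ventricle that holds part of it. Its epithelial cells sit on a stroma with leaky capillaries, are joined by tight junctions, and move water, ions, folate and other solutes from blood to cerebrospinal fluid. Transthyretin is one of the most abundant messages of these cells and is used as their marker, since neurons and glia of the hippocampus make little of it.

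The samples were whole hippocampi of 14 adult male Sprague-Dawley rats taken 24 h after surgery, with 1 gene expression array and 1 miRNA array for each rat. Sham rats (n = 2) had surgery without injury, TBI rats (n = 3) had severe fluid percussion brain injury and no drug, and the TBI+Imipramine, TBI+Prozac and TBI+Zoloft rats (n = 3 each) had the same injury followed 1 h later by the named antidepressant, Prozac being fluoxetine and Zoloft sertraline. The groups ask what injury changed in the hippocampus and what each drug changed after injury. Levels are log2 array signals scaled so that 0 is the 75th percentile of an array's own signals, taken over probes that exceed background there, and levels of different rows are not set against each other. Between 14676 and 18196 probes were well above background on a gene expression array. Of 9 listed hippocampal neuron genes with a row, Wfs1, Fibcd1, Grik4, Zbtb20 and Neurod6 were above background on 14 arrays and Spink8 on 8, while Prox1, Tdo2 and Lct were above it on 0. The 4 groups of injured rats lay on 2 slides, with the 3 TBI rats and TBI+Prozac replicate 1 on one and the other 8 drug-treated rats on the other. Differences of the TBI+Imipramine and TBI+Zoloft rats from the TBI rats therefore cannot be told apart from the slide, except through that single TBI+Prozac array. Both Sham rats lay on a slide of their own, so that Sham and slide cannot be told apart. The 2 miRNA arrays of the Sham rats had 0 and 1 probes above background and were left out of the miRNA fit.

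Sequences of 5 miRNAs go with the second result, a relation of small RNAs on the separate miRNA arrays to the Ttr level of the same rat, and are shown here from RefSeq (GRCr8) with the seed, bases 2 to 8 from the 5′ end, in capitals. The first 2 share one seed and the last 3 share another, and miR-211-5p and miR-449a-5p were too dim to be fitted.
miR-204-5p: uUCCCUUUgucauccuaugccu
miR-211-5p: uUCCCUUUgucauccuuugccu
miR-34b-5p: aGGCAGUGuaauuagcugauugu
miR-34c-5p: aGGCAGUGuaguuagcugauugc
miR-449a-5p: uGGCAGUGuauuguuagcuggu
Mature miR-204-5p lies at chr1:229743493-229743514 on the plus strand, within the gene of the cation channel Trpm3. Mature miR-34b-5p (chr8:60306657-60306679) and miR-34c-5p (chr8:60306133-60306155) lie on the minus strand with 501 bases between them, within the gene Hoatz. The pair miR-34b-5p and miR-34c-5p differ at 2 positions and the pair miR-204-5p and miR-211-5p at 1, so that an array probe for one may also bind the other.

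Ttr was above background on all 14 arrays and fell into 2 sets of rats with a wide gap between them. In the Sham rats its log2 level was -0.83 and 4.86. In the TBI rats it was -0.68, 0.90 and 4.83, and in the TBI+Imipramine rats 6.63, 6.69 and 0.79. In the TBI+Prozac rats it was 6.44, -2.61 and -2.63, and in the TBI+Zoloft rats 6.11, 6.65 and 0.78. Every group therefore held at least 1 rat from 4.83 to 6.69 and at least 1 rat from -2.63 to 0.90, with no rat in the 3.93 log2 units between. The highest rat of a group exceeded the lowest 51.8-fold in Sham, 45.5-fold in TBI, 59.9-fold in TBI+Imipramine, 538-fold in TBI+Prozac and 58.4-fold in TBI+Zoloft, and over all rats the ratio was 639-fold. The wide spread was thus present in uninjured and injured rats, and in untreated and drug-treated ones. In whole-tissue RNA, fewer cells of a type and less RNA per cell cannot be told apart.

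**Figure D1:**
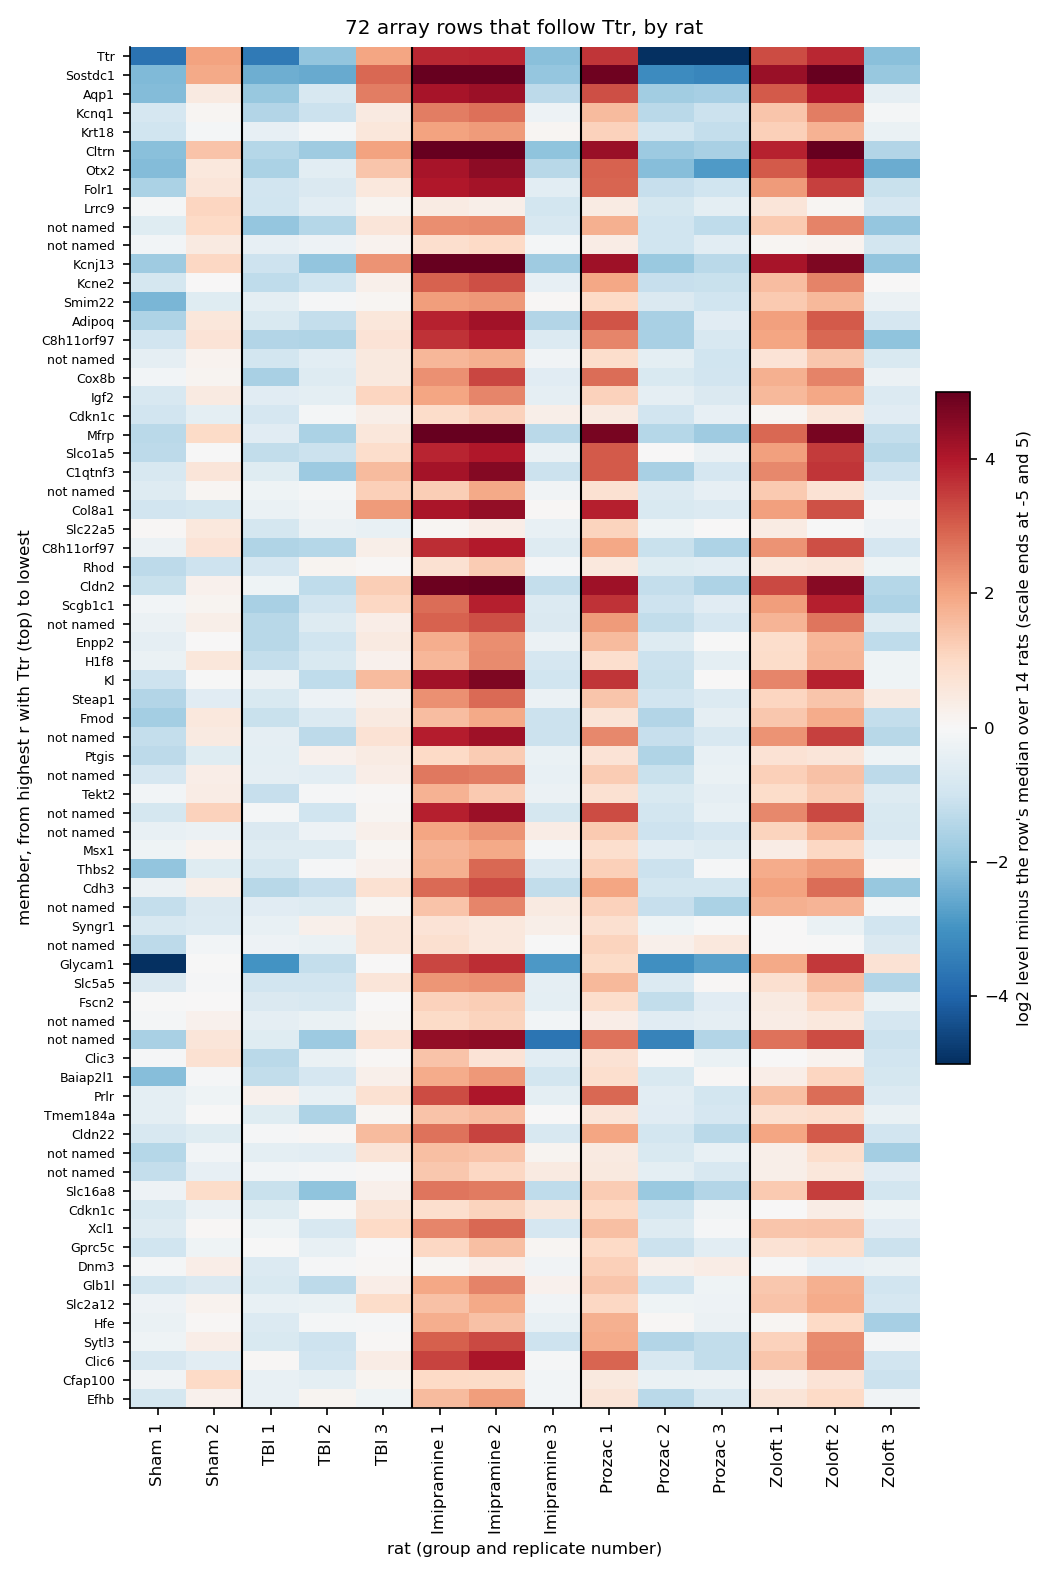
Each of the 72 rows is drawn over the 14 rats (columns, by group), as its log2 level minus its own median over the rats. The columns of Imipramine 1 and 2, Prozac 1 and Zoloft 1 and 2 are red through nearly the whole set, with Sham 2 and TBI 3 paler, and the 7 other rats are mostly blue.

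The first list was of proteins that the choroid epithelium secretes and of its hormone receptors. Of 13 listed genes 12 had a row, and 7 of those were members: Ttr itself, Sostdc1, Cltrn, Igf2, Enpp2, Kl and Prlr. Igf2, an insulin-like growth factor that the choroid plexus and meninges secrete, was above background on all arrays. Its log2 level was -0.93 and 0.30 in Sham, -0.70, -0.64 and 0.94 in TBI, 1.83, 2.31 and -0.58 in TBI+Imipramine, 1.02, -0.58 and -0.86 in TBI+Prozac, and 1.48, 1.80 and -0.82 in TBI+Zoloft. The same 7 rats were the high ones as for Ttr, and the highest rat stood 9.47-fold over the lowest. Enpp2, the enzyme autotaxin that makes lysophosphatidic acid, was at 0.06 and 0.55 in Sham, -0.85, -0.47 and 0.99 in TBI, 2.36, 2.83 and 0.23 in TBI+Imipramine, 2.12, -0.13 and 0.50 in TBI+Prozac, and 1.39, 2.19 and -0.75 in TBI+Zoloft. The 7 high-Ttr rats were again the highest, with Sham replicate 2 just above TBI+Prozac replicate 3, and the rats spanned 12.8-fold. Sostdc1, a secreted antagonist of BMP and Wnt signals, was above background on 7 arrays, which were those of the 7 rats with high Ttr. Its level was -3.10 in Sham replicate 2 and -2.12 in TBI replicate 3, and from -0.67 to 1.46 in the 5 high drug-treated rats. Kl, which encodes klotho, was above background on 6 arrays, and Prlr, the prolactin receptor, on 4. The 5 listed genes of this kind that had a row and were no members also had positive r: Spint2 0.82, Calml4 0.81, Ace 0.80, Igfbp2 0.79 and Ecrg4 0.76, and Spint2 spanned only 1.09 log2 units.

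Of 13 listed genes of water and ion transport, all had a row and 4 were members: Aqp1, Kcnj13, Kcne2 and Clic6. Aqp1, the water channel of the apical choroid membrane, was at -7.41 and -4.79 in Sham, -7.13, -6.03 and -2.66 in TBI, -1.11, -0.97 and -6.54 in TBI+Imipramine, -2.02, -6.95 and -6.88 in TBI+Prozac, and -2.18, -1.18 and -5.67 in TBI+Zoloft. It was above background on 9 arrays, and its lowest values are bounds rather than levels. Kcne2, a subunit that pairs with the potassium channel Kcnq1, was above background on all arrays at -3.77 and -2.89 in Sham, -4.17, -3.89 and -2.62 in TBI, 0.06, 0.32 and -3.29 in TBI+Imipramine, -0.97, -4.05 and -4.02 in TBI+Prozac, and -1.36, -0.40 and -2.89 in TBI+Zoloft. Its highest rat exceeded its lowest 22.5-fold, while Sham replicate 2 and TBI+Zoloft replicate 3 were level. Kcnq1, which was on no list, was a member too, with r 0.955, and was above background on 6 arrays. The potassium channel Kcnj13 was above background on 6 arrays and Clic6, a chloride channel family member, on 4. Among the transporters that were no members, Car14 had r 0.84, Slc4a5, Slc4a2 and Trpv4 0.75 each, and Slc12a2 0.63. Atp1b1 and Slc4a10, which neurons also express, had r of 0.09 and 0.05 and were above background on 14 arrays, and Car12 was above it on 0.

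Of 12 listed genes of solute and metal transport 11 had a row, and 5 were members: Folr1, Slco1a5, Steap1, Slc16a8 and Slc2a12. Folr1, the folate receptor through which folate reaches the cerebrospinal fluid, was at -5.35 and -3.19 in Sham, -4.73, -4.52 and -3.26 in TBI, 0.20, 0.38 and -4.31 in TBI+Imipramine, -0.88, -4.94 and -4.79 in TBI+Prozac, and -1.67, -0.35 and -4.88 in TBI+Zoloft. It was above background on all arrays, and the highest rat stood 52.8-fold over the lowest. Slco1a5, an organic anion transporter, was above background on 6 arrays, the metalloreductase Steap1 on 11, Slc16a8, a lactate transporter, on 7, and the sugar transporter Slc2a12 on 14. Of the others, Abcc4 had r 0.72 and Slc22a8 0.66, and Lrp2 and Slc31a1 had negative r of -0.29 and -0.38, with Slc31a1 above background on 0 arrays.

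Among 11 junction and epithelial genes 10 had a row, and Krt18, Mfrp, Col8a1 and Cldn2 were members. Krt18, a keratin of simple epithelia, was above background on all arrays at -4.78 and -3.88 in Sham, -4.17, -3.87 and -3.21 in TBI, -1.75, -1.64 and -3.68 in TBI+Imipramine, -2.62, -4.70 and -4.95 in TBI+Prozac, and -2.59, -2.05 and -4.12 in TBI+Zoloft. Its lowest high-Ttr rat, Sham replicate 2, lay below TBI replicate 2 and TBI+Imipramine replicate 3, so that the 2 sets overlapped for Krt18. Cldn2, the claudin of leaky epithelia, and Mfrp were above background on 5 arrays each, none of them in Sham or TBI rats. The claudins Cldn1 and Cldn3 had r of 0.75 and 0.69, Krt8 0.79 and Cdh1 0.57, and Epcam had r -0.62 and was above background on 1 array.

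Of 4 listed transcription factors, Otx2 and Msx1 were members. Otx2, a homeodomain factor that choroid plexus cells need to form and to persist, was above background on the 7 arrays of the high-Ttr rats, at -5.45 in Sham replicate 2, -4.59 in TBI replicate 3, -1.86 and -1.51 in TBI+Imipramine, -3.04 in TBI+Prozac, and -2.90 and -1.80 in TBI+Zoloft. Msx1, a homeobox factor of the dorsal midline, was above background on all arrays and spanned 5.84-fold. Tfap2b had r 0.35 and was above background on 1 array, and Lmx1a was above it on 0.

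The letters TAATCC, the core that Otx2 and related homeodomain proteins bind, were searched on both strands in the 250 bases before the start of the 40 named member genes with a RefSeq promoter (GRCr8). They were found in 4 of the 40 (10%), against 1908 of 27457 genes in the whole table (6.95%), so that the share was close to that of all genes. The 4 matches are shown with flanking bases and the motif or its reverse complement GGATTA in capitals. They are letters in a window and not mapped binding sites.
Cltrn, chrX:34027189-34027218, minus strand: tctccgatacccTAATCCgggtcacagaat
Adipoq, chr11:91240284-91240313, minus strand: cagatccaagctGGATTAagccaggttccc
Mfrp, chr8:53342423-53342452, plus strand: ctcagctgagttGGATTAaggaccattccg
Cldn22, chr16:51156299-51156328, minus strand: ttcacaaagagaGGATTAgcactgcctgac

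**Figure D2:**
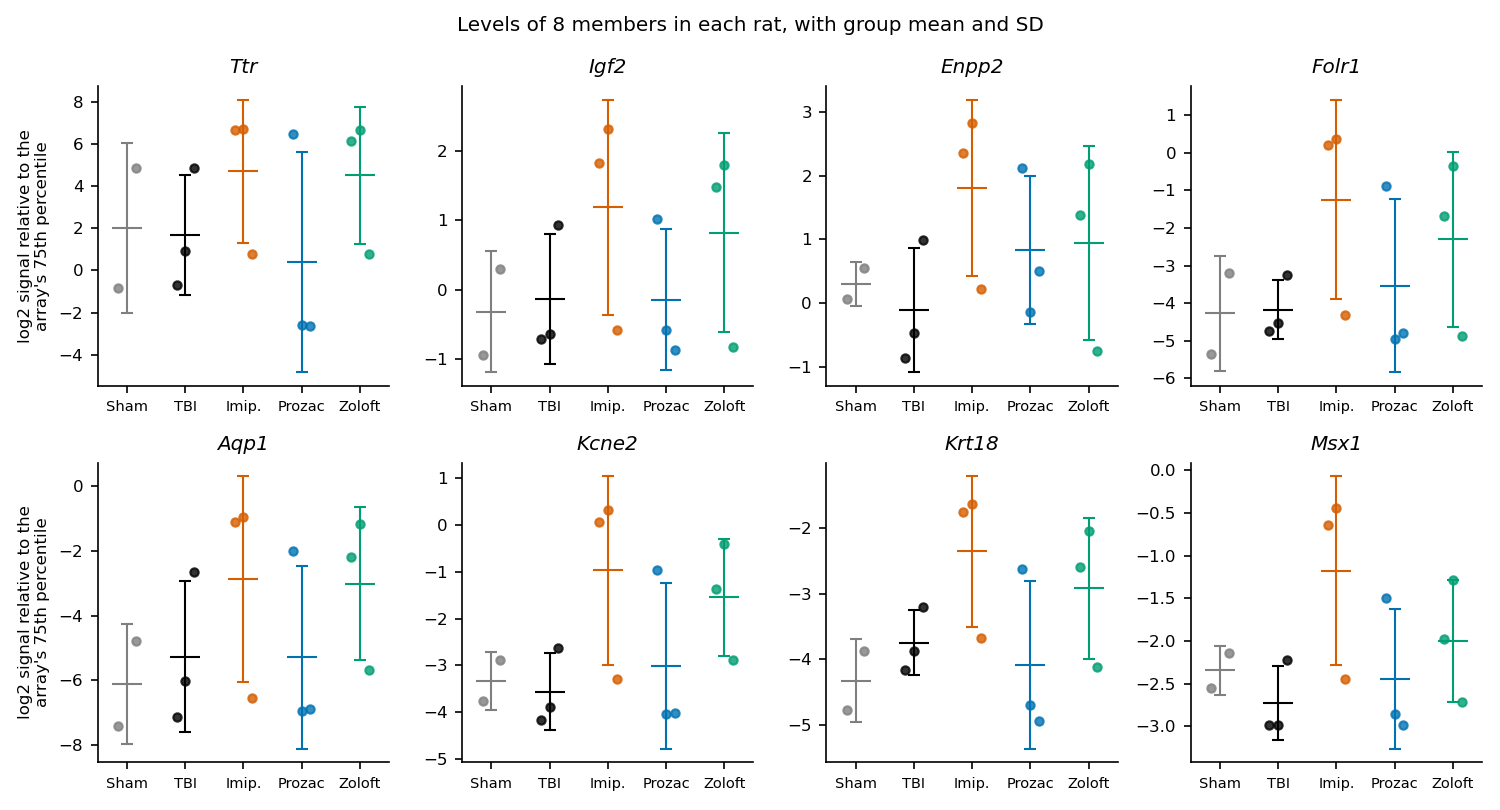
Log2 levels of 8 members (y axis, relative to the array's 75th percentile, a separate scale for each gene) are shown for each rat (points) in the 5 groups, with the group mean (horizontal mark) and SD (bars). In Ttr and Igf2 each group splits into high and low rats, and the means of the drug groups follow how many of their 3 rats were high.

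The 10 named members of highest r on none of the lists were Kcnq1, Lrrc9, Smim22, Adipoq, C8h11orf97, Cox8b, Cdkn1c, C1qtnf3, Slc22a5 and Rhod. Smim22, a small membrane protein of epithelia, had r 0.931 and spanned 22.2-fold with all 14 arrays above background. Adipoq, the adipocyte hormone adiponectin, was above background on 5 arrays, from -4.88 to -2.73, all in drug-treated rats with high Ttr. C8h11orf97 had 2 rows, with r of 0.927 and 0.908. Cdkn1c, an imprinted inhibitor of cyclin-dependent kinases, also had 2 rows, with r of 0.917 and 0.860 and spans of 4.32-fold and 4.07-fold. Cox8b is the heart and muscle form of a cytochrome oxidase subunit, C1qtnf3 a secreted adiponectin relative, Slc22a5 the carnitine transporter, and Rhod a small GTPase. Lrrc9 was above background on 0 arrays, the only member for which this was so, and its r of 0.937 rests on signals near background. A further 3 members come from motile cilia, Tekt2, Cfap100 and Efhb, with r from 0.85 to 0.892. Glycam1, a secreted mucin-like glycoprotein, had the widest range of any member, 10.58 log2 units, and was lowest in Sham replicate 1, where it was not above background.

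The members lay close together as a set. Over the 2556 pairs of rows the median r of the deviations was 0.91, the lowest 0.52, and 96.0% of pairs exceeded 0.7, which the rule itself favours. TBI+Imipramine replicate 2 was the highest rat for 57 of the 72 rows and replicate 1 for 6. The lowest rat was less uniform and differed between 7 rats, TBI+Zoloft replicate 3 being lowest for 15 rows and Sham replicate 1 for 14. For 41 of the 72 rows the 7 highest rats were exactly the 7 with high Ttr. Of 27 rows above background on 1 to 7 arrays, 26 were above it only in those 7 rats. From the lowest to the highest Ttr level the rats had 44, 32, 30, 21, 34, 35 and 38 members above background up to the gap, and 57, 45, 66, 70, 71, 66 and 71 above it. The rule also favours these shares and counts, since it chose rows that follow Ttr, which itself splits the rats. They describe the set and were not compared with those of other rows. The 18 rows measured on every array spanned from 3.75-fold in Dnm3 to 639-fold in Ttr. The median range of the 72 rows was 4.14 log2 units, from 1.76 to 10.58, with the limit of 1.5 set by the rule.

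Members just inside the limit were Clic6 with r 0.852, Cfap100 with 0.851 and Efhb with 0.85. Just outside were the clock gene Per3 with 0.8458, Tmem72 with 0.8449 and a row without a name with 0.8445, so that the limit falls within a run of closely spaced values and marks no step. In the opposite direction 12 of 5702 rows of sufficient level and range had r at or below -0.85.

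Which rows were chosen depended on the arrays used. With the rule applied to the 8 arrays of the second slide alone, an alternative chosen after seeing the data, 177 rows were found, which held 51 of the 72 (70.8% of the 72 and 28.8% of the 177). On those arrays 68 of the 72 still reached the limit on r, with a median r of 0.96 and a lowest of 0.57. The rule also sets limits on level and range, so that the 51 is not a count of rows that kept their r. The 72 were chosen with these arrays included. Leaving out TBI+Prozac replicate 1, the only high rat of its group, gave 72 rows of which 49 were among the original 72, the largest exchange among the 14 rats left out in turn. The 7 arrays with high Ttr had between 15846 and 18196 probes above background and the 7 with low Ttr between 14676 and 17893, and the part of such array differences in the relation was not tested. Of the within-group variation of 17251 rows, the first component held 25.1% and had an absolute r of 0.51 with Ttr, the second held 20.6% and had 0.12, and the third held 13.9% and had 0.75.

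Genes of neighbouring tissues were set beside the choroid lists on the same measure. Over the 5 choroid plexus lists 50 of 53 genes had a row, 48 passed the level limit, 22 were members, and 40 had r of 0.5 or more, a value reached by 7.8% of all 19670 rows. Ttr itself is counted in the 48, the 22 and the 40. The lists were chosen with earlier results of these data known, so that these shares are a description and not an independent test. Of 14 ependymal and motile cilia genes that passed the level limit, 0 were members and 8 reached 0.5, led by Zmynd10 (0.83), Dynlrb2 (0.82) and Cfap126 (0.82). The lowest of that list were Rarres2 (-0.32), Mia (-0.05) and Sntn (-0.05). Of 17 meningeal and fibroblast genes, 13 reached 0.5, and Fmod, an extracellular matrix proteoglycan, was a member with r 0.895 and a span of 11.9-fold. Crabp2 and Nupr1 had r of 0.84 and Ptgds 0.80. The lowest of the meningeal list were Slc47a1 (-0.63, above background on 1 array), Lum (-0.03) and Dcn (0.07). All 6 blood cell genes had r from 0.55 to 0.69. By contrast 0 of 5 thalamus and habenula genes, 1 of 6 hippocampal neuron genes and 1 of 6 endothelial genes reached 0.5, with median r of 0.22, -0.07 and 0.30, beside -0.02 over all rows.

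**Figure D3:**
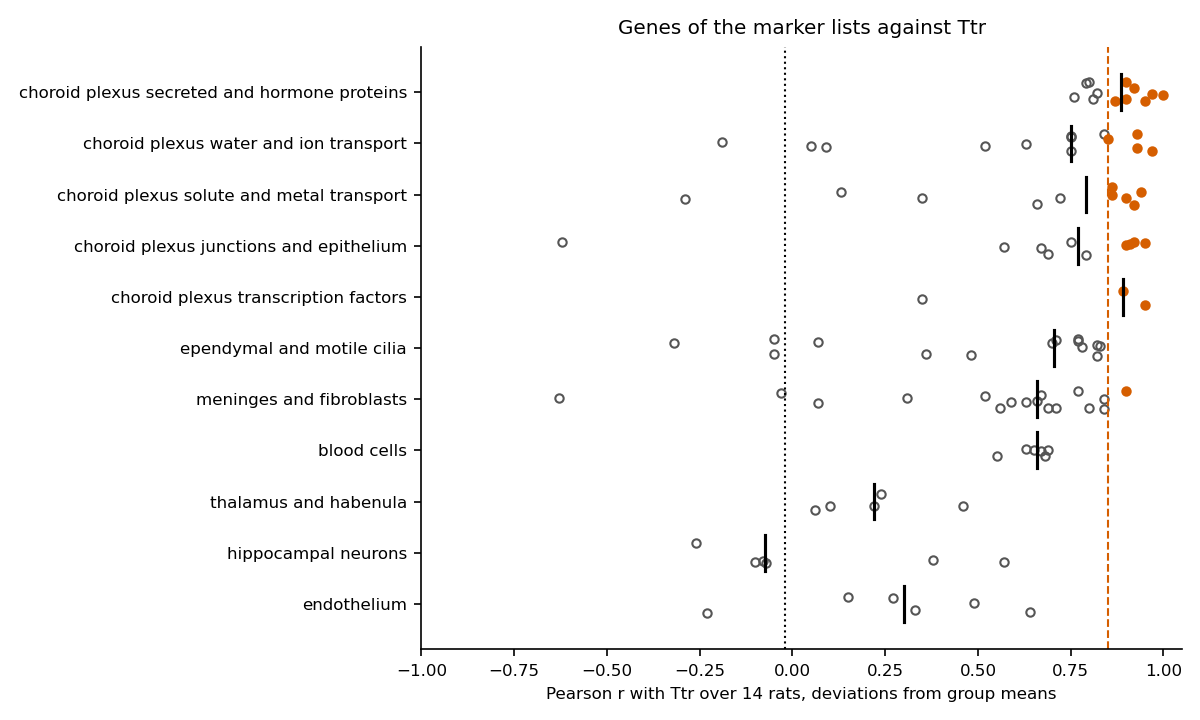
Each point is a gene of a marker list that passed the level limit, placed by its Pearson r with Ttr (x axis), with members filled and the list's median as a vertical bar. The dashed line marks the limit of 0.85 and the dotted line the median over all 19670 rows, -0.02. By median the choroid plexus lists lie furthest right. The medians of the ependymal, meningeal and blood lists lie between them and those of the hippocampal and thalamic lists. Single genes of different lists overlap.

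The summed linear level of the 18 meningeal genes, relative to the 75th percentile, was 13.5 and 19.8 in the Sham rats and ranged from 10.1 to 26.0 in TBI, 12.2 to 29.6 in TBI+Imipramine, 8.22 to 19.6 in TBI+Prozac and 8.72 to 31.7 in TBI+Zoloft. That of the 6 blood cell genes was 45.8 and 60.7 in Sham and ranged from 41.8 to 52.6, 40.3 to 80.5, 38.8 to 65.3 and 53.1 to 93.8 in the same order. For the 15 ependymal genes it was 1.16 and 1.81 in Sham and ranged from 1.89 to 2.25, 2.31 to 4.08, 1.61 to 2.57 and 1.45 to 2.31. In the meningeal sum Ptgds weighed most, at log2 levels from 2.29 to 4.59, and no other gene of that list exceeded 0.67 (Bgn). Single genes of the lists ranged more widely than the sums, as did Ogn with 5.81 log2 units over the rats, Slc6a13 with 4.51 and Nupr1 with 4.36, all meningeal. The part of meningeal tissue or blood in the result was not tested.

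The group means were then compared with limma over all 17322 rows above background in every rat of at least 1 group, of which 42 were members. The rule used the spread within groups and the range but not the group means. The 30 other members were not tested, since no group had all its rats above background for them. Since the rule selected rows of wide spread within groups, few calls among the members were favoured in advance. A count of 0 beside the share over all rows therefore does not show a lack of response. In TBI vs. Sham, 0 of the 42 members passed an adjusted p of 0.05, where 16.6% of all rows did, and 2 of 42 (4.76%) had an unadjusted p under 0.05, Slc22a5 and Syngr1, where 30.8% of all rows did. For Ttr the means were 1.68 ± 2.84 (SD, n = 3) in TBI and 2.02 ± 4.03 (SD, n = 2) in Sham, a log2 difference of -0.33 ± 2.99 (SE) with a 95% interval from -6.83 to 6.17 and limma adjusted p of 0.955. Single rats set the direction: the difference was 2.51 without Sham replicate 2, 0.85 without TBI replicate 1 and 0.06 without TBI replicate 2, and -3.18 without Sham replicate 1. The interval is so wide that neither a large rise nor a large fall of Ttr with injury can be told from these 5 rats.

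In TBI+Imipramine vs. TBI, 0 of 42 members passed the threshold (background 2.85%). An unadjusted p under 0.05 was found for 11 of 42 (26.2%), beside 19.7% of all rows, and Glb1l and Syngr1 passed the filter on dim rows through the imipramine rats alone. For Ttr the difference was 3.02 ± 2.68 (SE), with a 95% interval from -2.80 to 8.84 and limma adjusted p = 0.544. Kcne2 differed by 2.59 ± 1.03 (SE) with adjusted p = 0.194 in the same test, Msx1 by 1.55 ± 0.55 with 0.150, and Enpp2 by 1.92 ± 0.85 with 0.239. In each of these 3 genes TBI+Imipramine replicate 3 lay among the TBI rats, and the groups overlapped. Without that rat, 2 of 71 members tested, Msx1 and Steap1, passed the threshold, beside 308 of all 17928 rows tested. More members were tested there, since the filter then asked for only the 2 high-Ttr rats of that group. Ttr then differed by 4.98. The Ttr difference was 1.84 without TBI replicate 1, 4.59 without TBI replicate 3, and 2.06 and 2.02 without TBI+Imipramine replicates 1 and 2.

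In TBI+Prozac vs. TBI, 0 of 42 members passed (background 0.00577%, which is 1 row), and 2 of 42 (4.76%), Dnm3 and Slc22a5, had an unadjusted p under 0.05, beside 10.1% of all rows. For Ttr the means were 0.40 ± 5.23 (SD, n = 3) and 1.68 ± 2.84 (SD, n = 3), and the difference was -1.28 ± 2.68 (SE), with a 95% interval from -7.10 to 4.54 and limma adjusted p = 0.90. It changed sign without TBI replicate 3 (0.29), without TBI+Prozac replicate 2 (0.22) or without TBI+Prozac replicate 3 (0.23). Dnm3, a dynamin, was higher in all 3 TBI+Prozac rats, at -3.39, -4.36 and -4.24, than in the TBI rats, at -5.30, -4.65 and -4.55, and its adjusted p was 0.360.

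In TBI+Zoloft vs. TBI, 0 of 42 members passed (background 1.38%), and 0 had an unadjusted p under 0.05, beside 15.2% of all rows. The difference for Ttr was 2.83 ± 2.68 (SE), with a 95% interval from -2.99 to 8.65 and limma adjusted p = 0.678. It was 1.65 without TBI replicate 1, 4.40 without TBI replicate 3, 1.76 without TBI+Zoloft replicate 2 and 4.69 without TBI+Zoloft replicate 3. The 3 drug groups were also compared with each other, and 0 of 42 members passed the moderated F test (background 3.18%), with adjusted p = 0.486 for Ttr and 4 of 42 (9.52%) at an unadjusted p under 0.05, beside 22.5% of all rows, namely Dnm3, Syngr1, Efhb and a row without a name. The 3 drug comparisons share the TBI rats, and all imipramine and Zoloft rats lay on another slide than these. With the slide as a fixed block the Ttr differences became 12.08, 4.76 and 11.89 for imipramine, Prozac and Zoloft, estimated through the single TBI+Prozac array on the slide of the TBI rats, and 0 members passed there too. Among the 18 members above background on all arrays, the higher mean was in TBI for 10 against Sham, and in the drug group for 18 with imipramine, 9 with Prozac and 16 with Zoloft against TBI. Their median log2 differences were 0.10, 1.11, 0 and 0.74 in that order, beside 0.01, 0.18, 0.13 and 0.01 over all 14129 such rows. The rows were chosen for moving together, so that the 18 are not independent of each other. The residual SD of the 42 members had a median of 1.0 log2 units, beside 0.22 over all 17322 rows tested, and ran from 0.36 to 3.82. The rule selected for this spread.

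The miRNA arrays gave a readout that played no part in choosing the members. They had 191 to 406 probes above background in the injured rats with high Ttr and 187 to 323 in those with low Ttr. The 75th percentile used for scaling was 753.5 in TBI+Imipramine replicate 1 and from 3220.8 to 6118.8 in the other injured rats. The part of such array differences in the relation was not tested. On the 12 injured rats, 265 of 1806 miRNA probes were above background in every rat of at least 1 group, and each was fitted with the group means and the rat's Ttr level. The slope passed a limma adjusted p of 0.05 for 5 of the 265 probes (1.89%), and these were both probes of miR-204-5p, both of miR-34b-5p and 1 of miR-34c-5p. Of the miRNAs printed above, miR-211-5p and miR-449a-5p did not pass the filter and were not fitted. The calls ended without 1 rat, TBI+Zoloft replicate 3, where 0 of 359 probes passed and the adjusted p of the 3 miRNAs was 0.0690, and without the filter, where 0 of 1806 passed and it was 0.343. In the brain miR-204 is a known miRNA of the choroid plexus, and the miR-34b and miR-34c pair and miR-449 are known from cells with motile cilia. All 5 slopes were positive, from 0.248 to 0.354, and the other slopes ran from -0.065 to 0.078.

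For miR-204-5p the brighter probe was above background on all 12 arrays. Its log2 level was -1.88, -1.91 and -0.87 in TBI, 1.1, 1.57 and -1.85 in TBI+Imipramine, 0.17, -2.04 and -2.18 in TBI+Prozac, and 0.35, 0.98 and -2.18 in TBI+Zoloft. The 6 high values belonged to the 6 injured rats with high Ttr, and TBI replicate 3, the lowest of these in Ttr, was the lowest of them here as well. The slope was 0.350 ± 0.048 (SE) log2 units per log2 unit of Ttr, with limma adjusted p = 0.00601, and the second probe gave 0.354 ± 0.059 with 0.00775.

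For miR-34c-5p the levels were -3.70, -4.01 and -3.25 in TBI, -1.88, -1.58 and -4.10 in TBI+Imipramine, -2.52, -4.18 and -4.40 in TBI+Prozac, and -2.65, -2.09 and -4.45 in TBI+Zoloft. It was above background on 11 arrays, and the slope was 0.257 ± 0.039 with limma adjusted p = 0.00601. The brighter probe of miR-34b-5p gave -3.49, -3.81 and -3.07 in TBI, -1.65, -1.25 and -3.85 in TBI+Imipramine, -2.31, -3.96 and -4.08 in TBI+Prozac, and -2.32, -1.77 and -4.09 in TBI+Zoloft. Its slope was 0.254 ± 0.040 with limma adjusted p = 0.00606. Both miRNAs separated the high-Ttr rats from the others without overlap, by a narrow margin at TBI replicate 3.

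**Figure D4:**
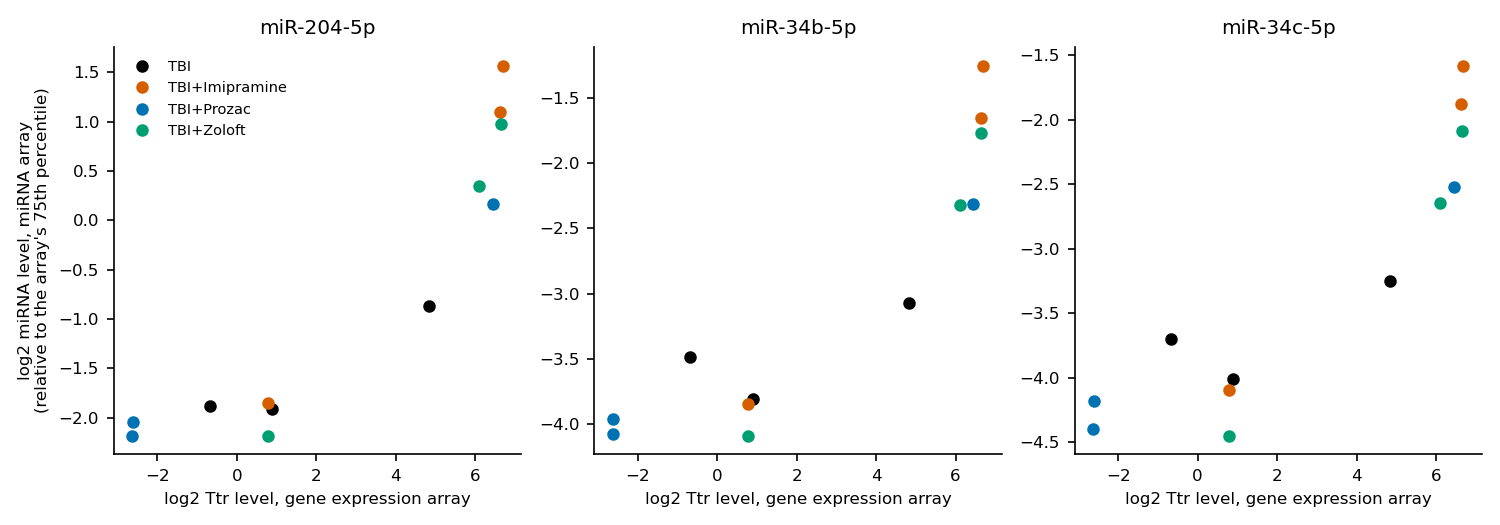
The log2 level of each miRNA on the miRNA array (y axis) is plotted against the log2 Ttr level of the same rat on the gene expression array (x axis) for the 12 injured rats, coloured by group. In each panel 6 rats lie to the left of the gap in Ttr and 6 to the right, and the right-hand rats are higher.

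Since the rats fell into 2 clusters of 6, no r over all 12 is given, and the 3 miRNAs were related to Ttr within each cluster, 6 relations in all. Among the 6 rats with Ttr from 4.83 to 6.69, miR-204-5p had Pearson r = 0.91 (exact permutation p = 0.0111, adjusted p = 0.0222) and Spearman rho = 0.89 (exact permutation p = 0.0333, adjusted p = 0.0667). There miR-34b-5p and miR-34c-5p each had r = 0.89 (exact permutation p = 0.00278, adjusted p = 0.00833) and rho = 0.94 (exact permutation p = 0.0167, adjusted p = 0.05). Without the 2 rats farthest from the median Ttr the 3 r values were 0.97, 0.94 and 0.92 over the 4 rats left, whose Ttr ran only from 6.44 to 6.69. Among the 6 rats with Ttr from -2.63 to 0.90, r was 0.41, 0.20 and 0.18, with exact permutation p from 0.397 to 0.771, and -0.30, -0.84 and -0.76 without the 2 farthest rats. With the deposited table, leaving out the 2 farthest rats of the higher cluster gave r of 0.76, 0.83 and 0.87 for the 12 injured rats. With all 14 rats it gave 0.49, 0.49 and 0.48. Group means were not subtracted from these values. Whether the relation differed between the clusters was not tested. With the mean of the other 71 members in place of Ttr, the slope of miR-204-5p was 0.970 ± 0.048 (SE) with limma adjusted p = 4.59e-07, the smallest of the 265 probes.

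The other listed miRNAs gave no comparable value. The arm miR-204-3p, and miR-211-5p and miR-211-3p, were above background on 2 arrays each. The 2 miR-449 members, miR-34b-3p, miR-34c-3p, the 3 miR-200 members, miR-141-3p and miR-429 were above it on 0. The gene Trpm3, within which miR-204 lies, had r of 0.52 with Ttr at its brighter row and was above background on 8 arrays. The next probes in the fit were miR-218a-5p, with a slope of -0.045 ± 0.011, miR-181b-5p, with 0.078 ± 0.020, and miR-652-3p, with 0.047 ± 0.012, each with limma adjusted p = 0.104.

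**Figure D5:**
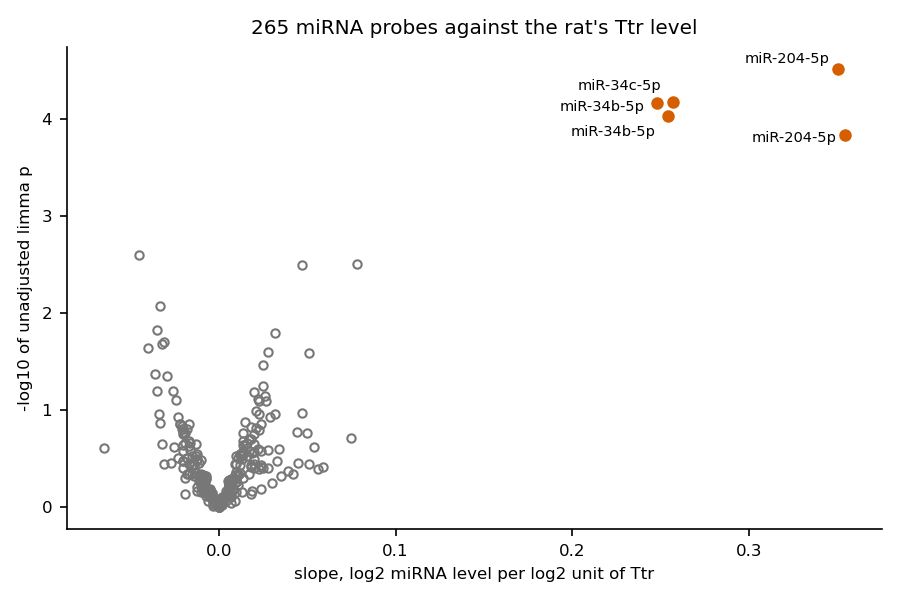
Each of the 265 miRNA probes is placed by its slope on the rat's Ttr level (x axis) and the −log10 of its unadjusted limma p (y axis). The 5 probes with adjusted p under 0.05, of miR-204-5p, miR-34b-5p and miR-34c-5p, stand apart at slopes from 0.248 to 0.354.

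In the deposited table, which also holds values for the Sham rats, miR-204-5p was at 0.42 in Sham replicate 1 and 1.83 in Sham replicate 2 on the log2 scale, miR-34b-5p at -1.45 and -0.21, and miR-34c-5p at -1.73 and -0.45. The rat with the higher Ttr had the higher value in all 3, although the scanner files of these 2 arrays had almost no probe above background. With values of all 14 rats taken from there, 5 probes passed, and miR-204-5p had a slope of 0.345 ± 0.048 with limma adjusted p = 0.00440. Within the 8 arrays of the largest slide, a fit chosen after seeing the data, its slope was 0.528 ± 0.028 with limma adjusted p = 0.000140, and 6 probes passed.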

How the data were processed

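The authors labelled hippocampal RNA for 1-colour Agilent rat gene expression and miRNA arrays and read them with Agilent Feature Extraction, version 11.5.1.1 per the file headers, whose design build is rn4. The deposited files hold the processed spot intensity with above-background, saturation and outlier flags, and 2 deposited tables hold linear intensity values that the authors, per the study's methods, had divided by the 75th percentile intensity over each array's probes exceeding background. The filter on dim rows used here is the one the methods state, and how spots were averaged is not given in the sources used here. Control and outlier-flagged spots were dropped, spots of a probe averaged, and each gene expression array scaled by its own 75th percentile, over probes that exceed background, before log2. The miRNA arrays were divided by the 75th percentile over the 168 probes above background on all 12 injured arrays, with a floor of 0.00938. The members came from the deposited table by the stated rule. Names came from RefSeq accessions (GRCr8), for 18643 of 30367 rows.

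Group means were fitted with limma 3.58.1 (R 4.3.3) on 14 arrays, two-sided, with Benjamini-Hochberg adjustment over all rows kept, those above background in every replicate of at least 1 group. The miRNA slopes were fitted the same way, and the fits were tested on simulated data. The p-values measure the spread between rats. The normexp alternative used pixel median signals. Named genes were Ttr, the choroid list members, the 10 highest-r named members on no list, 3 rows on each side of the limit on r, members past a threshold, the listed miRNAs and the 5 of smallest p. Rows outside this rule were named after their values were seen. A gene with several rows was taken at its brightest row. The members and lists were chosen with earlier results of these data known. The number of arrays limits the precision.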

Additional observations from a re-analysis of the deposited data

How the results depend on the processing

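With 0 members called in each group comparison, 14 of 16 alternatives for TBI vs. Sham, 16 of 18 for TBI+Imipramine, all 18 for TBI+Prozac, 17 of 18 for TBI+Zoloft and all 19 for the difference among drugs also gave 0. These counts do not show a lack of response, since the rule chose rows of wide spread within groups. Quantile normalization gave 1 of 42 members (Syngr1) in TBI vs. Sham, where 4467 of 17322 rows passed. Syngr1 was above background on 0 Sham arrays and on 2 of the TBI arrays. Leaving out 1 rat gave 0 to 1 in TBI vs. Sham (Syngr1, without TBI replicate 1, where 3003 of 17493 rows passed). It gave 0 to 2 for TBI+Imipramine (Msx1 and Steap1, without its replicate 3, where 308 of 17928 rows passed) and 0 elsewhere. The methods' t-test at its unadjusted threshold gave 1 of 42 for TBI+Imipramine, a row without a name, where 2438 of 17314 rows passed. It gave 2 of 42 for TBI+Zoloft (Steap1 and Glycam1), where 1406 of 17294 rows passed. After Benjamini-Hochberg it gave 0 in each. The replicate numbers are not a pairing, since same-numbered rats of compared groups had correlations from -0.19 to 0.23. With the replicate block 0 members were called, and Ttr in TBI vs. Sham turned to 0.61. It was 0.02 with the slide as a random block, and without 1 rat it ran from -3.18 to 2.51. In TBI+Prozac vs. TBI, Ttr was 4.76 with the slide as a fixed block and ran from -4.30 to 0.29 without 1 rat. No fixed slide block could be fitted for Sham. The all-row median for TBI+Imipramine moved from 0.20 to -0.01 under quantile normalization.

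The 5 miRNA probes became 0 without the filter (1806 probes tested, slopes as before) and 0 to 7 without 1 rat. The 0 came without TBI+Zoloft replicate 3, where 359 probes passed the filter and the adjusted p was 0.0690 for the 3 miRNAs. Scaling each array by the percentile of its own probes above background, an alternative chosen after seeing the data, gave 18, with a median slope over all probes of 0.094 in place of 0.001. Within clusters, the 3 miRNA relations past the threshold became 0 with the deposited table for 12 rats, with r from 0.84 to 0.87 in the higher cluster. The 72 members became 110 at a limit of 0.80, 29 at 0.90, 43 without subtracting group means, 177 on the second slide alone (chosen after seeing the data), and 63 to 93 without 1 rat. With the scaled signals from which the levels here come, the rule gave 81 rows, which held 60 of the 72 (83.3%).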
